A study of Homo sapiens with 2 samples.

Results

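Where IRF1 was found around the genes that carry, trim and load peptides for MHC class I molecules was read from a list of 1986 IRF1 binding summits. The 7 genes are TAP1, TAP2, ERAP1, ERAP2, TAPBP, TAPBPL and B2M, and their members in the list are the 8 summits whose nearest gene, as the authors annotated it, is 1 of these, at any distance. IRF1 was mapped by ChIP-seq, in which DNA bound by a factor is precipitated with an antibody and sequenced, in NB4, an established human acute promyelocytic leukemia line labelled as bone marrow derived. The treated group was 1 library of NB4 cells given all-trans retinoic acid (ATRA) for 4 hours. The other group was 1 library of control cells, for which the treatment protocol names DMSO. Both were fixed with formaldehyde before sonication, and no genetic change to the line is labelled. The list carries the name of the treated library. Control values were not analysed here, so every value below describes ATRA-treated cells, without replicate error and without any measured gain or loss under ATRA.

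MHC class I molecules show fragments of the cell's own proteins to CD8 T cells. Peptides made by the proteasome are pumped into the endoplasmic reticulum by a transporter built from TAP1 and TAP2, shortened there by the aminopeptidases ERAP1 and ERAP2, and fitted into the class I groove with the help of tapasin, encoded by TAPBP, or of its relative encoded by TAPBPL. B2M encodes beta-2 microglobulin, the light chain that every classical class I molecule needs to fold and reach the surface. IRF1 is a transcription factor of the interferon response that binds repeats of GAAA, and genes of this pathway are textbook targets of interferon.

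Each of the 7 genes had at least 1 summit to which it was nearest and which lay at most 10 kb from a transcription start site (TSS), as did 3.37% of 19970 protein-coding genes. These genes were taken up with earlier results of the same list known, so this count is a description. The authors' peak score, whose scale is not stated and which serves only to rank summits within the list, ran from 49.8 to 301 over the 8 summits, with a median of 184. The median over all 1986 summits was 25.2 and the upper quartile 44.0, so all 8 lay above the upper quartile of the list.

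In 6 of the 7 genes the summit lay beside the same letters, and these stretches are shown to let them be compared. Each stretch has 30 bases and is written in the direction in which the repeat reads GAAA. Capitals mark the interferon response core, searched as GAAA, then any 2 bases, then GAAA. For TAPBPL, where no core was found, the last 30 bases of the searched window are given and capitals mark its GAAA. Sequences and gene starts are from RefSeq on GRCh38.p14, whose primary chromosomes are those of hg38, the build of the list.
TAP1, chr6:32853816-32853845, plus strand: tttagggGAAAGCGAAATCGAAAgcggccg
TAP2, chr6:32838778-32838807, minus strand: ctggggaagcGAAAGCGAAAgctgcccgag
ERAP1, chr5:96807924-96807953, plus strand: ccccaggaccGAAAGTGAAAgtggagcccg
ERAP2, chr5:96876460-96876489, plus strand: tcttagaacaGAAAGTGAAAgcaaaagtaa
TAPBP, chr6:33314076-33314105, minus strand: tttggagGAAAGTGAAAGTGAAAggaggaa
B2M, chr15:44711366-44711395, plus strand: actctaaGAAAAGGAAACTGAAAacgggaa
TAPBPL, chr12:6452062-6452091, plus strand: gcgggctgccatcttgctctaagtGAAAgt

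The TAP genes held the strongest summit of the set. TAP2 had a summit with a score of 301 at chromosome 6 position 32838774, the 3rd of 1986 and the highest of 107 on chromosome 6. The authors placed it in the TAP2 promoter at -4 bp from the TSS, and it lay 35 bp upstream of the RefSeq start of TAP2 (gene span 32821831 to 32838739, minus strand). TAP1 had a summit with a score of 231 at position 32853840, which ranked 17th in the list and 4th on the chromosome. It lay 15.1 kb from the TAP2 summit, beyond the TAP1 span (32845209 to 32853704, minus strand). Of all summits, 0.101% scored above TAP2 and 0.806% above TAP1. Among the 974 summits within 10 kb of a TSS these shares were 0.205% and 1.44%.

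The TAP1 summit sits in the stretch that TAP1 shares with PSMB9, which encodes an immunoproteasome subunit and is transcribed the other way. It was 136 bp upstream of the RefSeq start of TAP1 and 352 bp upstream of that of PSMB9. The authors gave TAP1 as its nearest gene but named a PSMB9 transcript for the promoter. A further summit in the list, with a score of 115 at 731 bp from that of TAP1, had these names the other way round, PSMB9 as the nearest gene and a TAP1 transcript for the promoter. The summit of PSMB8, another immunoproteasome subunit gene, had a score of 229 and lay 5.3 kb from the TAP2 summit and 9.8 kb from the TAP1 summit. Within 50 kb the TAP1 and TAP2 summits had no other neighbours than each other and those of PSMB8 and PSMB9. Assignment to TAP1 or to PSMB9 is therefore uncertain.

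The 250 bases before the RefSeq starts of TAP1 and TAP2 are printed because the summits fall in them. They are written in the direction of the gene, so the core of TAP1, which faces the other way, appears as its reverse complement. Capitals mark the core.
TAP1, chr6:32853705-32853954, minus strand: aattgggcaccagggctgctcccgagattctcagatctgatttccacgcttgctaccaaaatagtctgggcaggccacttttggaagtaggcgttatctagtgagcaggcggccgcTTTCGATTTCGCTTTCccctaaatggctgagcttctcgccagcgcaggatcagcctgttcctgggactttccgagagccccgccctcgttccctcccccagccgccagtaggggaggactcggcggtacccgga
TAP2, chr6:32838740-32838989, minus strand: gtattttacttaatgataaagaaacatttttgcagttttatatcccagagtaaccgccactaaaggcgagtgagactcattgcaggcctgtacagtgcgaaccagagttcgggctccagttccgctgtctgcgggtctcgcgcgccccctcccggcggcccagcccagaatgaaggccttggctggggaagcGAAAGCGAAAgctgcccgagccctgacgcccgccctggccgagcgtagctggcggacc
In TAP1 3 copies of GAAA, each 2 bases apart, ran from position 32853823 to 32853838, and the summit was 2 bp beyond this run. In TAP2 a single core ran from 32838788 to 32838797, 14 bp from the summit. It overlapped a match to the ETS-IRF composite, GGAA, then any 2 bases, then GAAA, from 32838794 to 32838803.

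**Figure D1:**
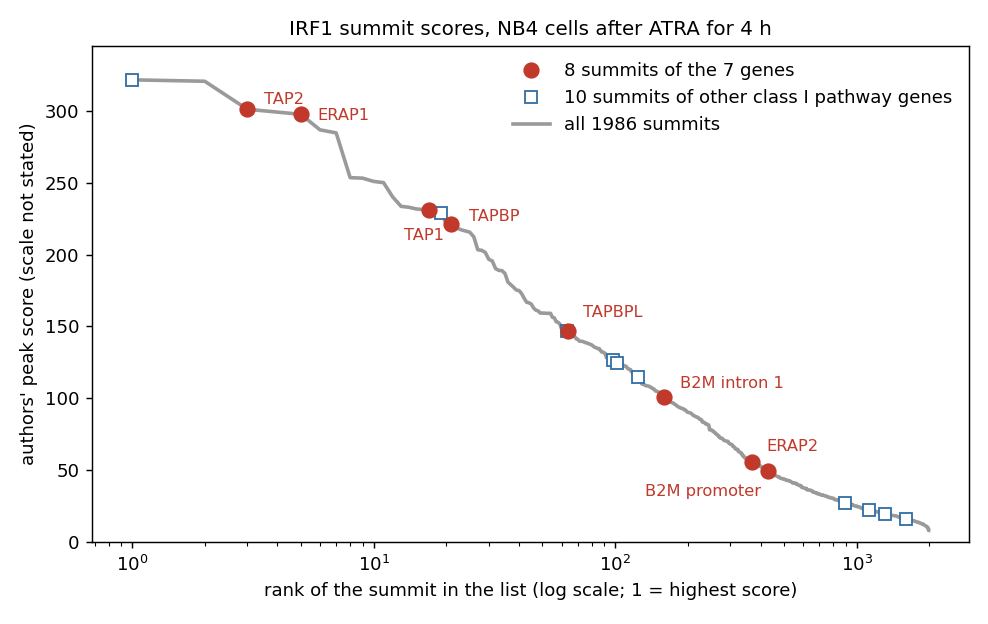
Authors' peak score (vertical, scale not stated) against rank in the list (horizontal, log scale). Red circles are the 8 summits of the 7 genes, open squares the 10 summits within 10 kb of other listed class I pathway genes, and the grey line all 1986 summits. TAP2 (301), ERAP1 (297), TAP1 (231) and TAPBP (221) rank 21st or higher, and the B2M promoter summit (49.8) is the lowest of the red circles.

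The 2 peptide-trimming genes differed in score. ERAP1, which trims peptides to the length that fits class I, had a summit with a score of 297 at chromosome 5 position 96807949, the 5th of the list and the highest of 115 on chromosome 5. ERAP2, a related aminopeptidase with another residue preference, had a summit with a score of 55.7 at position 96876489, which ranked 370th in the list and 22nd on the chromosome. With 1 library no error can be put on this difference. Both summits were classed by the authors as 5′ UTR, in exon 1. Against the nearest RefSeq start of the gene they lay 4 bp upstream for ERAP1 and 11 bp upstream for ERAP2. The ERAP1 summit was also 491 bp downstream of the start of LOC124901033, a noncoding gene transcribed the other way, and inside its span. RefSeq gives each of these genes 2 starts, and the ERAP2 summit was 505 bp downstream of the other ERAP2 start. Both genes carried the same core letters, GAAAGTGAAA, at 96807934 to 96807943 in ERAP1 and at 96876470 to 96876479 in ERAP2. The ERAP1 summit was 6 bp from the edge of its core and the ERAP2 summit 10 bp. The ERAP1 core lay 2 to 11 bp downstream of the start, on the strand opposite to the gene, and the ERAP2 core upstream of the start on the strand of the gene.

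The ERAP1 and ERAP2 summits were 68.5 kb apart and neither had another summit within 50 kb. Just outside that distance, at 58.3 and 58.6 kb from the ERAP2 summit, lay 2 summits with LNPEP as the nearest gene, with scores of 22.3 and 125. LNPEP encodes a further aminopeptidase of this family, which works in endosomes. Both LNPEP summits also fell inside the RefSeq span of ERAP1 (96760813 to 96935854, minus strand), which covers ERAP2 as well. At positions 96934809 and 96935080 they were near the upstream end of that span. They were also inside the span of LOC124901030 (96934091 to 96936075, minus strand), which RefSeq gives as protein-coding. A summit in this stretch can therefore belong to more than 1 gene.

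The genes for the 2 loading factors each had a single summit without neighbours. TAPBP, which encodes tapasin, the bridge between the transporter and the empty class I molecule, had its summit at chromosome 6 position 33314084, with a score of 221, the 21st of the list. The closest other summit was 264.7 kb away, with BAK1 as its nearest gene. The authors classed the site as the transcription termination site of a ZBTB22 transcript and put it 303 bp downstream of the TAPBP TSS. It lay 6 bp upstream of the RefSeq start of TAPBP (33299694 to 33314078, minus strand) and inside a run of 3 copies of GAAA from 33314083 to 33314098. Of the 6 summits of the set inside a searched promoter window, that of TAPBP was the 1 that fell within a core. Its 250 bases before the start show the run close to their end:
TAPBP, chr6:33314079-33314328, minus strand: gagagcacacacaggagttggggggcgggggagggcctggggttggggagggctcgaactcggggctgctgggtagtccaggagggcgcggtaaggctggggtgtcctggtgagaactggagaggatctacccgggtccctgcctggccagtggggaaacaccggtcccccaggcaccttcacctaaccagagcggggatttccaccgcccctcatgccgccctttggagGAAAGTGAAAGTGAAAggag

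TAPBPL encodes a tapasin-related peptide editor that works apart from the transporter. Its summit had a score of 147 at chromosome 12 position 6452104, ranked 64th in the list and 3rd of 94 on the chromosome. The closest other summit was 1802.8 kb away, with NDUFA9 as its nearest gene. The authors placed it in the TAPBPL promoter, 93 bp downstream of the TSS. RefSeq gives TAPBPL 2 starts, and the summit was 62 bp downstream of the nearer. It was also 587 bp upstream of the start of CD27-AS1, a noncoding gene transcribed the other way. None of the searched letters was found in either TAPBPL window, but the nearer window ended 13 bp before the summit, so the summit's own position was not searched. That window ended in GAAAGT, the letters with which the cores of ERAP1, ERAP2 and TAPBP begin. The bases beyond were not read, so a core across the window's edge would have been missed.

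B2M was the 1 gene of the set with more than 1 summit. In intron 1 a summit at chromosome 15 position 44712683 had a score of 101 and ranked 159th. In the promoter a summit at position 44711397 had a score of 49.8 and ranked 429th. They were 1286 bp apart, and the one farther from the start was the higher. The same order was seen in 23 of the 48 protein-coding genes with exactly 2 summits within 10 kb, B2M included. The promoter summit lay 120 bp upstream of the RefSeq start of B2M (44711517 to 44718145, plus strand) and only 7 bp upstream of the start of PATL2, which is transcribed the other way, so it cannot be assigned to B2M alone. The intron summit was 1166 bp downstream of the B2M start, outside the sequence searched.

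Next to the B2M promoter summit, 3 copies of GAAA, each 2 bases apart, ran from 44711373 to 44711388, with the summit 9 bp beyond. The 250 bases before the B2M start hold this run near their middle:
B2M, chr15:44711267-44711516, plus strand: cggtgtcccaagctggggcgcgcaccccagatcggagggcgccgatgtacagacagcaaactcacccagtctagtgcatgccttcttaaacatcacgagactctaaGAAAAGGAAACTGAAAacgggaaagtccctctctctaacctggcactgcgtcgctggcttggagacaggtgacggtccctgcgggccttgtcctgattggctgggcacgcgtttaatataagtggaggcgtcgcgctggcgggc
The other summit within 50 kb, with a score of 19.0 at 16.1 kb from the intron summit, had the pseudogene RNF4BP as its nearest gene. Farther out, at 71.9 kb, an intergenic summit with a score of 28.4 in an LTR13 repeat had TRIM69 as its nearest gene.

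**Figure D2:**
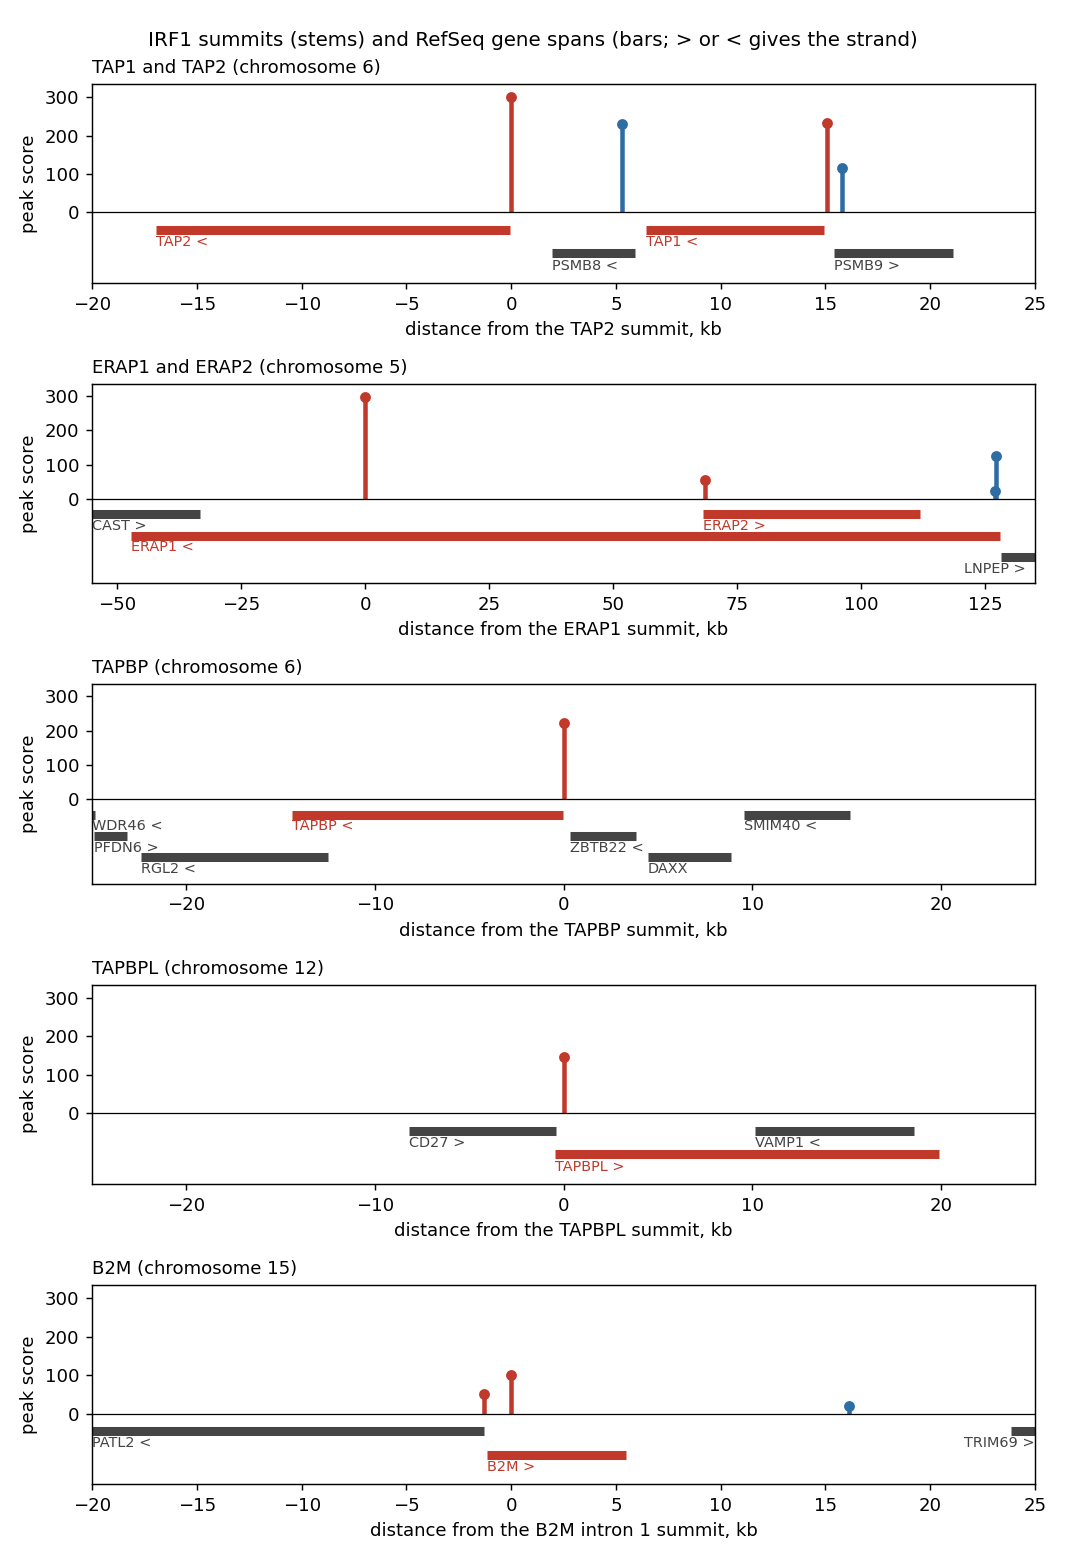
IRF1 summits as stems (height is the authors' peak score) over the RefSeq spans of protein-coding genes (bars, with > or < for the strand where known), against distance in kb from the summit named under each panel. Genes whose names start with LOC are not drawn. Red marks the 7 genes and blue summits of other nearest genes. The TAP summits stand 15.1 kb apart with PSMB8 (229) between them, TAPBP and TAPBPL stand alone, and the B2M summits of 101 and 49.8 flank the gene's start.

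How close the summits lie to a start depended on the annotation. Against the authors' TSS, 3 of the 8 member summits were within 100 bp, those of TAP2, TAPBPL and the B2M promoter. Against the nearest RefSeq start of the same gene, 5 were within 100 bp, those of TAP2, ERAP1, TAPBP, ERAP2 and TAPBPL. The distances of ERAP1, TAPBP and ERAP2 were 240, 303 and 549 bp by the authors' TSS. The nearest start was taken where RefSeq gives several, and for ERAP2 the other start, at 505 bp, is closer to the authors' distance. The TAP1 summit was on opposite sides by the 2 annotations, 136 bp upstream of the RefSeq start and 131 bp downstream of the authors' TSS. This comparison was chosen after the values were seen.

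**Figure D3:**
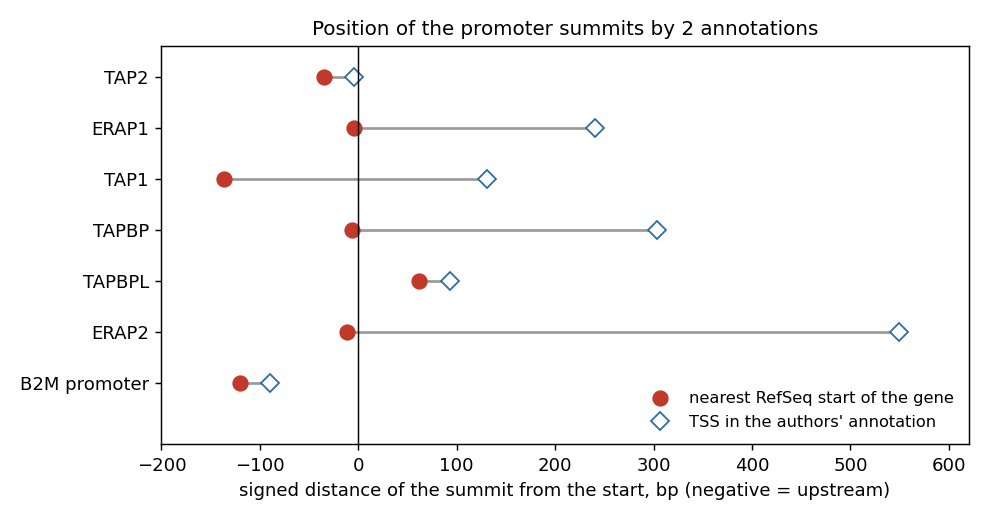
Signed distance in bp of 7 summits (all but that in B2M intron 1) from the nearest RefSeq start of the gene (red circles) and from the TSS in the authors' annotation (open diamonds), with negative values upstream. ERAP1, TAPBP and ERAP2 move to between -4 and -11 bp by RefSeq, and the B2M promoter summit is upstream by both.

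The core letters were then placed against all promoters. RefSeq promoter windows, from 250 bases before to 50 after each gene start, were searched on both strands. The core was in 6 of the 11 windows of the 7 genes and in 3.57% of all 35116 windows. Of the windows that held a summit, all 6 of the set had a core, and so had 111 of the 296 windows of other genes (37.5%), some of which overlap those of the set, as that of PATL2 overlaps that of B2M. The longer run of 3 GAAA copies was in 3 of the 11 windows, those of TAP1, TAPBP and B2M, and in 0.154% of all windows. The ETS-IRF composite was in 1 of the 11 (TAP2), against 2.82% of all windows. The gamma activated site, TTC, then any 3 bases, then GAA, was also in 1 of the 11, at the second TAP1 start and 890 bp from the summit, against 7.66% of all windows. A match describes the letters and does not show that IRF1 contacts them.

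The summits of the set lay close to these letters. Over the 9 cores of 6 genes, the distance from the centre of the core to the summit ran from 3.5 bp in TAPBP to 19.5 bp in B2M. Over all 126 cores in windows with a summit, those of the set included, the median distance was 18.5 bp, and 67.5% were within 25 bp. Within the set, the number of cores did not follow the score. TAP2 and ERAP1 had the highest scores with 1 core each, whereas the B2M promoter had 2 overlapping cores and the lowest score.

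**Figure D4:**
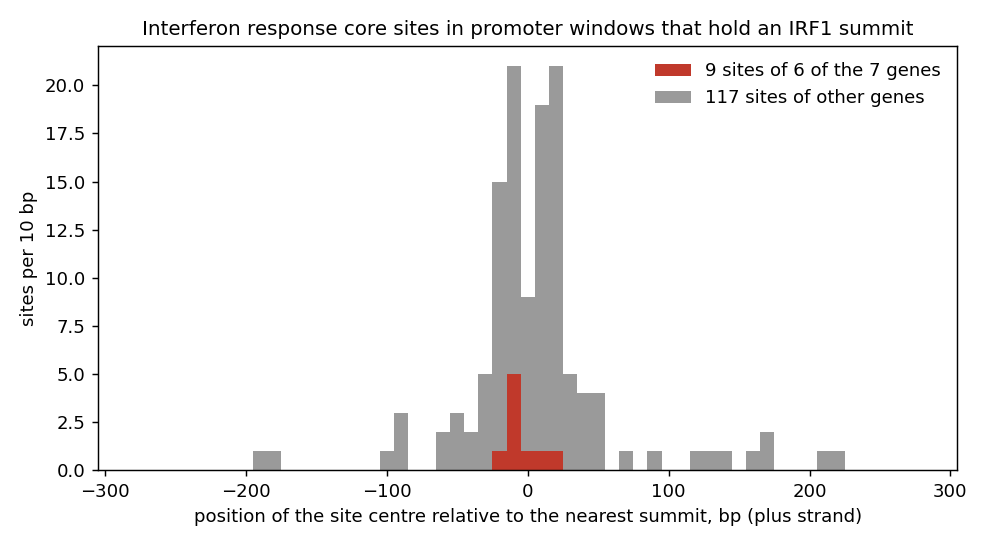
Number of interferon response cores per 10 bp (vertical) by position of the core's centre relative to the nearest summit in bp on the plus strand (horizontal), for the 126 cores in promoter windows that hold a summit. Red marks the 9 cores of the set, which all lie within 19.5 bp of a summit, and grey those of other genes.

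For the rest of the class I pathway, 31 further genes were described, and 7 of them had a summit by the same rule, beside the 3.37% of all protein-coding genes. Of the proteasome genes among these 31, PSME1, a subunit of the interferon-inducible activator, had the highest score of the whole summit list (321). Other proteasome subunit genes were not among the 31. Of those, PSMA3 (93.1), PSMB2 (88.0), PSMA6 (43.4) and PSMB1 (26.9) also had summits within 10 kb. PSMB8 had 229, PSMB10 147 with a weaker summit of 16.4, PSME2 127 and PSMB9 115. LNPEP was described above. Of the class I heavy chain genes described here only HLA-C had summits, with scores of 27.4 and 20.0, below the lowest of the set. No summit was assigned to HLA-G, HLA-F, HLA-E or HLA-B, and since these genes are alike in sequence, the handling of reads that match several of them, not given in the sources used here, could affect this.

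Downstream of the transporter, the folding chaperones CALR, CANX, PDIA3, PDIA6 and HSPA5 and the glycan-processing enzymes UGGT1 and GANAB had no summit. Neither had the cytosolic peptidases TPP2, THOP1, NRDC, NPEPPS, BLMH and LAP3, the channel subunit SEC61A1, the constitutive activator subunit PSME3, or RFX5, RFXAP and RFXANK, the factors that bind class II and class I promoters. NLRC5, the class I transactivator, had a single summit, with a score of 101, at 27536 bp upstream of the authors' TSS. That summit nevertheless fell inside the RefSeq span of NLRC5 extended by 10 kb, so its distance depends on the annotation. IRF1 itself had one with 12.5 at 24257 bp downstream of the authors' TSS, outside such an extended span. Among genes with a summit within 10 kb, the best score had a median of 221 over the 7 genes of the set, 127 over the 7 other pathway genes and 28.8 over 672 protein-coding genes, both groups included. A gene without a summit may still be bound, because the read depth and the background of the calling are unknown. If the control library was that background, sites bound alike in treated and control cells would be missing.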

How the data were processed

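The analysis used 1 deposited list of IRF1 summits from NB4 cells given ATRA. Per the file headers, summits of a file named for the 4 hour treated library were annotated on hg38 by annotatePeaks.pl of HOMER. Bowtie2 2.2.9 and MACS 1.4.2 are named in the submitters' processing notes. The sources used here do not give the background, the threshold or the handling of duplicates. The deposited peak score is the authors' value per summit. Its scale is not stated, so it was used only to rank and describe. Read depth is unknown, and no interval or floor was derived. If reads matching several places were kept or dropped, summits in HLA genes could change.

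Genes were matched by Entrez identifier to RefSeq genes of GRCh38.p14, where 1977 of 1986 summits matched, as did all 7 members and the 31 other pathway genes described. A further listed item is not reported here. All 7 members matched RefSeq promoter windows, 11 in all. Windows were scanned for exact letters on both strands. The scan was tested on simulated data. Positions are 1-based.

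The members, lists and motifs were chosen with earlier results of these data known. Named were all members, pathway genes with a summit, and nearest genes of neighbours within 50 kb. BAK1, NDUFA9, TRIM69, PATL2, ZBTB22, PSMA3, PSMB2, PSMA6, PSMB1, LOC124901033, LOC124901030, CD27-AS1 and pathway genes without a summit within 10 kb were added after values were seen. No test was made, because 1 library per group gives no error. Alternatives changed distance, score limit, assignment, ranking, motif and TSS. Python 3.11.15, pandas 2.3.3 and scipy 1.17.1 were used.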

Additional observations from a re-analysis of the deposited data

How the results depend on the processing

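All 7 members had a summit with the distance to the TSS limited to 1 or 5 kb, at any distance, with the 993 highest summits and with gene spans extended by 10 kb, where the shares of all protein-coding genes were 2.03%, 2.82%, 6.38%, 1.89% and 7.46%. The 7 other pathway genes stayed 7 within 1 kb and with the 993 highest summits. They became 8 with extended spans, by the addition of NLRC5. Ranked only among the 974 summits within 10 kb of a TSS, the share of summits with a higher score was 0.205% for TAP2, 0.411% for ERAP1, 1.44% for TAP1, 1.64% for TAPBP, 4.41% for TAPBPL and 9.86% for the B2M intron. Over the whole list these were 0.101%, 0.201%, 0.806%, 1.01%, 3.17% and 7.96%. For ERAP2 the share was 19.7% within 10 kb of a TSS and 18.6% over the whole list. For the B2M promoter it was 22.8% and 21.6%. The ranked set is smaller by construction. Other summits near the members numbered 3 within 50 kb and 6 within 100 kb. The core was in windows of 6 members, the longer repeat in 3, and with 1 mismatch allowed in 7, when 33.0% of all windows matched. Summits within 100 bp of a start numbered 5 by RefSeq and 3 by the authors' TSS. No paired analysis was possible because there was a single library in each group, and no replicate could be left out. Depth is unknown, so differences in score carry no error.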

Other observations

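The middle bases of the core, counted after the values were seen and without a test, were unevenly spread among promoters with a summit. The letters GAAAGCGAAA, found in TAP1 and TAP2 and also in PSMB8, PSMB10, PSME1 and PSME2, occurred at 17 places within 25 bp of a summit, of 29 in all windows (58.6%). The letters GAAAGTGAAA, found in ERAP1, ERAP2 and TAPBP, had 25 of 71 (35.2%). The other core of TAP1, GAAATCGAAA, had 3 of 9 (33.3%). Of the 2 cores of B2M, GAAACTGAAA had 12 of 87 (13.8%) and GAAAAGGAAA 3 of 169 (1.78%). The letters GAAAAAGAAA, in none of the 7 genes, had 0 of 210. These shares include the places of the 7 genes, which were taken up with their summits known. Without the 7 genes, the places within 25 bp of a summit were 15 for GAAAGCGAAA and 21 for GAAAGTGAAA. They were 2 for GAAATCGAAA, 11 for GAAACTGAAA and 2 for GAAAAGGAAA. Leaving out the 7 genes, the median score of the nearest summit was 127 over 15 places with GAAAGCGAAA and 44.8 over 21 with GAAAGTGAAA. Places in windows of neighbouring genes can share a summit.

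A core alone was not matched by a summit in every pathway gene. The windows of HLA-F, LAP3 and RFX5 held the core, although the nearest summit to it was 490326.5, 191390.5 and 64998.5 bp away. Over all windows, the core was in 38.7% of the 302 with a summit and in 3.27% of the 34814 without. For the gamma activated site these shares were 7.62% and 7.66%.

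Of all 1986 summits, 27.8% had another within 50 kb, and 22.5% of the 1816 off chromosome 21. Of the 8 member summits 4 did, those of TAP1, TAP2 and B2M.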
